A study of Mus musculus with 6 samples.

Results

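The antigen processing and major histocompatibility complex (MHC) genes of irradiated mouse skin were followed as a list of 37 genes that load peptides onto class I and class II molecules. The genes were picked by their symbols, and each was read from the transcript cluster (the array's set of probes along 1 transcript) that carried that symbol and no other, taking the cluster with the highest mean where there were several. This gave values for 33 of the 37 genes, of 19938 genes with a cluster of their own: 18 of the class I route, 12 of the class II route and 3 subunits of the RFX factor. H2-K1 and H2-D1, the classical class I heavy chains of these mice, shared 2 clusters with each other and with LOC547349. H2-DMb1 shared 1 cluster with H2-DMb2, and H2-T23 shared 1 with H2-T-ps, so no level is given for these 4 genes.

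Dorsal skin came from 3 Cbl-b-/- mice and 3 wild-type (WT) mice of the BL6 background, matched for sex and age. Cbl-b is a ubiquitin ligase that restrains signaling in lymphocytes and other cells, and the knockout is labelled as clb-b -/- with no Cre or promoter named. All 6 mice had been shaved and then given 80 mJ/cm2 of UVB once, and the tissue was taken 24 h later, so the values compare genotypes within irradiated skin. The RNA of each mouse was hybridized to an Affymetrix whole-transcript array (Mouse Gene 1.0 ST), and levels are given as normalized log2 values. Cblb was at 8.61, 8.69 and 8.61 in Cbl-b-/- skin, against 9.90, 9.66 and 9.72 in WT skin. Keratinocyte genes had median levels of 11.5, 11.8 and 11.5 in the Cbl-b-/- arrays and 11.6, 11.7 and 11.03 in the WT arrays, which checks the labelled tissue. The array WT 3 stood apart by its hair follicle genes, whose median level was 5.75, 6.45 and 6.98 in the Cbl-b-/- arrays and 5.47, 5.66 and 8.97 in WT 1, WT 2 and WT 3. The class I and class II medians are therefore given with and without WT 3, as are log2 fold changes over 0.1 in size that leaving it out moved by over 1.5 times.

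Class I molecules present peptides cut by the proteasome to CD8+ T cells on almost every cell. The peptides enter the endoplasmic reticulum through the Tap transporter, are trimmed there and are fitted into a heavy chain paired with B2m. Class II molecules present peptides cut in endosomes to CD4+ T cells, chiefly on dendritic cells, Langerhans cells, macrophages and B cells, and Cd74 blocks their groove until H2-DM exchanges its remnant for a peptide. In skin, Langerhans cells of the epidermis and dendritic cells of the dermis carry most class II, and interferon gamma raises both routes through Nlrc5 for class I and Ciita for class II.

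None of the 33 measured genes met the study's thresholds (an unadjusted p under 0.05 and at least a 1.5-fold difference in limma), which 1.22% of all 35556 transcript clusters met. At an unadjusted p under 0.05 alone, 1 of the 33 passed, H2-Oa, where 6.55% of all clusters did. It was higher in Cbl-b-/- skin, and 3.68% of all clusters passed on that side and 2.87% on the other. At an adjusted p under 0.05 in limma 0 of the 33 passed, where 0.00281% of all clusters did, and the adjusted p of the 33 genes ran from 0.733 to 0.999. The Cbl-b-/- and WT arrays failed to overlap for 1 of the 33 genes, again H2-Oa, where 13.5% of all clusters had groups that did not overlap and 8.66% had every Cbl-b-/- array above every WT array. With 3 arrays a group, the smallest two-sided p of an exact permutation test is 0.1, so no single gene can pass 0.05 by that test.

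The log2 fold change (Cbl-b-/- minus WT) lay above 0 for 26 of the 33 genes, against 55.8% of all clusters, and its median was 0.052 over the 33 genes and 0.020 over all clusters. Without WT 3 the median of the 33 genes was −0.031, the lowest with any single array left out, and the highest was 0.15. For 27 of the 33 genes the difference between genotypes was smaller than the SD among arrays of a genotype, which ran from 0.059 to 0.53 with a median of 0.20. The 95% interval of 25 genes lay wholly within a 1.5-fold difference in either direction. It reached a 1.5-fold higher level in Cbl-b-/- skin for H2-DMa, H2-Ob, Lgmn, H2-M3, Tap1, Nlrc5 and Cd1d1, and a 1.5-fold lower level for Ctsl. For these 8 genes these 6 arrays cannot tell a 1.5-fold difference from none. The dorsal skin is a mixture of cells, and a lower value of a class II gene from fewer presenting cells and one from less RNA per cell cannot be told apart.

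**Figure D1:**
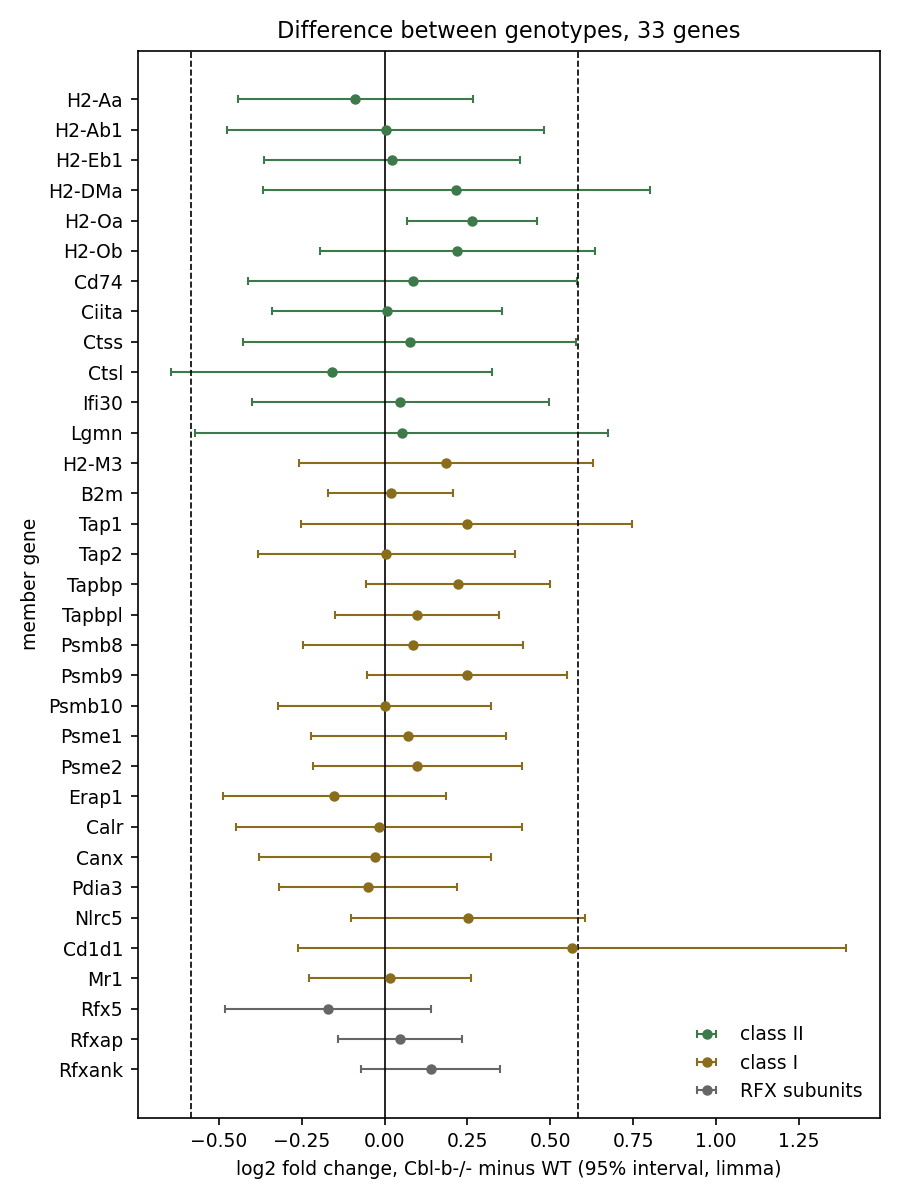
Log2 fold changes of the 33 measured genes (x axis, Cbl-b-/- minus WT, log2 units; points are limma estimates and bars their 95% intervals), grouped by role down the page, coloured by route, with dashed lines at a 1.5-fold difference. The interval of H2-Oa lies wholly above 0, that of Cd1d1 is the widest, and 25 of the 33 lie within the dashed lines.

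The promoters of class II genes carry a conserved set of boxes (an X box bound by the RFX complex, and a Y box with the letters ATTGG) at a fixed spacing, through which RFX and Ciita act. The promoters of H2-Aa, H2-Eb1, H2-Oa and H2-Ob are shown because they belong to chains of a class II molecule, whose arrays overlapped, and to the H2-O pair, of which H2-Oa did not. They are the 200 bases before the gene's start, read 5′ to 3′ on the gene's strand from RefSeq (GRCm38.p6). H2-Aa lies at chr17:34287824-34288023 on the minus strand, H2-Eb1 at chr17:34305667-34305866, H2-Oa at chr17:34092179-34092378 and H2-Ob at chr17:34238705-34238904, these 3 on the plus strand. Capitals mark ATTGG and the GNAAC, letters at the start of many X boxes, that lies 30 to 33 bases before it. Other GNAAC matches are left in lower case.
H2-Aa: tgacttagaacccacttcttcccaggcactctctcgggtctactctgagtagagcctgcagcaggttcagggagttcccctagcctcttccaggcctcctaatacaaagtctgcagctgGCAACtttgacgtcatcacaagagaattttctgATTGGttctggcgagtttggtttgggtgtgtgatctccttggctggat
H2-Eb1: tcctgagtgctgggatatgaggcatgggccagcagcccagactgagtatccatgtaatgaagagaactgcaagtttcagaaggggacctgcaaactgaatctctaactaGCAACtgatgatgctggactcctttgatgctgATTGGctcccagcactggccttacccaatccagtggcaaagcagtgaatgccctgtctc
H2-Oa: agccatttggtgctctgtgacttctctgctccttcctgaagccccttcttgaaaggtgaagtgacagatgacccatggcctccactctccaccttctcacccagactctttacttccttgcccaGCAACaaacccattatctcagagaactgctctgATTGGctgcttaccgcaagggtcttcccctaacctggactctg
H2-Ob: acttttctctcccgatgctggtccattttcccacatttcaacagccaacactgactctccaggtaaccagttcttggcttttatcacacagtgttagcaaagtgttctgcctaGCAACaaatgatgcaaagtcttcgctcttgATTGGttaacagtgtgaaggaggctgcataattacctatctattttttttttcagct
GNAAC starts 81 bases before the start of H2-Aa, 91 before H2-Eb1, 76 before H2-Oa and 87 before H2-Ob, and ATTGG starts 33, 32, 33 and 30 bases further on. A GNAAC followed 30 to 33 bases on by ATTGG, on either strand of the 250 bases before a start, was present in 193 of 32851 promoters, or 0.588%. The spacing was set after these promoters had been read, so the count is a description of the letters. Among the 29 listed genes whose promoter was used it was present in 6, namely H2-Aa, H2-Eb1, H2-Oa, H2-Ob, H2-DMb1 and Calr. That is 5 of 10 class II genes and 1 of 17 class I genes. The class II genes H2-Ab1, Cd74 and Ciita are not among the 10. ATTGG on either strand (CCAAT on the other) was present in 33.8% of all promoters and in 20 of the 29.

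Transcripts of the class II molecule differed between genotypes by less than the spread among arrays of a genotype. H2-Aa, the alpha chain of the I-A molecule, was at 10.93, 10.71 and 11.20 in Cbl-b-/- skin, against 11.20, 10.98 and 10.92 in WT skin. H2-Ab1, its beta chain, was at 10.36, 9.99 and 10.55 in Cbl-b-/- skin, against 10.60, 10.29 and 10.01 in WT skin. H2-Eb1, the beta chain of the I-E molecule, was at 9.97, 9.62 and 10.09 in Cbl-b-/- skin, against 10.07, 9.89 and 9.65 in WT skin. For all 3 chains Cbl-b-/- 2 was the lowest of the 6 arrays and the ranges overlapped, with Cbl-b-/- 3 and WT 1 at the upper end. Their log2 fold changes were −0.089 (standard error 0.15) for H2-Aa, 0.0030 (standard error 0.20) for H2-Ab1 and 0.022 (standard error 0.16) for H2-Eb1, and their 95% intervals ran from −0.44 to 0.27, from −0.47 to 0.48 and from −0.36 to 0.41. A 1.5-fold difference in either direction lay outside each of these 3 intervals. BL6 mice carry a defect in the gene for the alpha chain of I-E, H2-Ea, and its transcript cluster was at 4.47, 4.19 and 4.23 in Cbl-b-/- skin and 4.39, 4.20 and 4.43 in WT skin, at a percentile of 19.2 among all clusters by mean level.

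Cd74, the invariant chain that guards the groove, was at 10.77, 10.48 and 11.09 in Cbl-b-/- skin, against 10.98, 10.72 and 10.38 in WT skin. Its arrays took nearly the order of those of the chains, with Cbl-b-/- 3 the highest and with WT 3 and Cbl-b-/- 2 the lowest, and the groups overlapped. Its log2 fold change was 0.0845 (95% interval −0.41 to 0.58). H2-DMa, a chain of the H2-DM editor, was at 8.89, 8.70 and 9.42 in Cbl-b-/- skin, against 9.20, 8.64 and 8.53 in WT skin. Cbl-b-/- 3 was again the highest array and the groups overlapped, and the log2 fold change was 0.22 (95% interval −0.37 to 0.80), or 0.087 without WT 3 and 0.0082 without Cbl-b-/- 3.

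H2-Oa was the gene whose arrays were split by genotype. It encodes the alpha chain of H2-O, a partner that restrains H2-DM and is known mainly from B cells, the thymus and some dendritic cells. It was at 5.26, 5.09 and 5.27 in Cbl-b-/- skin, against 4.94, 4.93 and 4.96 in WT skin. Every Cbl-b-/- array lay above every WT array, and the WT arrays were tightly grouped. The means were 5.21 ± 0.099 in Cbl-b-/- skin and 4.94 ± 0.013 in WT skin (SD, n = 3 each), a log2 fold change of 0.26 (standard error 0.082), which is 1.20-fold, with a 95% interval from 1.05-fold to 1.38-fold. The unadjusted p was 0.0157 and the adjusted p 0.733 in limma, and the unadjusted p was 0.0546 without Cbl-b-/- 1. The cluster stood at a percentile of 29.6 of all clusters by mean level, and whether it lay above background was not tested. Among clusters with a mean under the median cluster, 4.57% were higher and 2.83% lower at an unadjusted p under 0.05. The partner chain H2-Ob was at 6.04, 5.67 and 6.06 in Cbl-b-/- skin, against 6.02, 5.58 and 5.51 in WT skin, with WT 1 among the high arrays, and its log2 fold change was 0.22 (95% interval −0.20 to 0.64), or 0.12 without WT 3.

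B cell genes were given beside H2-Oa because B cells are a known source of H2-O. All 7 measured genes of that list had a mean under the median cluster, and the median deviation of the list from gene means was 0.034, −0.011 and 0.067 in the Cbl-b-/- arrays, against −0.16, −0.035 and −0.031 in the WT arrays. The 3 Cbl-b-/- arrays lay above the 3 WT arrays on this measure. Fcer2a, the low-affinity receptor for IgE, was at 5.67, 4.04 and 5.96 in Cbl-b-/- skin, against 4.26, 4.37 and 4.41 in WT skin, high in Cbl-b-/- 1 and 3 and lowest in Cbl-b-/- 2. Its log2 fold change was the largest of the list (0.88, unadjusted p = 0.109 in limma), and its groups overlapped. The median log2 fold change of the list was 0.051. Of the 7 genes, 1 was higher at an unadjusted p under 0.05, Cd79b, a chain of the B cell receptor (log2 fold change 0.28), and none was lower. At that p 3.68% of all clusters were higher, and 4.57% of those with a mean under the median cluster. Cd79b lost this call when WT 1 was left out (log2 fold change 0.21). The split by genotype was not particular to the B cell list. Other class I and class I-like genes had median deviations of 0.091, 0.029 and 0.11 in the Cbl-b-/- arrays, against −0.022, −0.030 and −0.19 in the WT arrays. T and NK cell genes (13 measured) overlapped on this measure. Their median log2 fold change was also 0.051, and 1 was higher at an unadjusted p under 0.05 in limma, Cd3d. The part of the B cell genes in the H2-Oa difference was not tested.

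**Figure D2:**
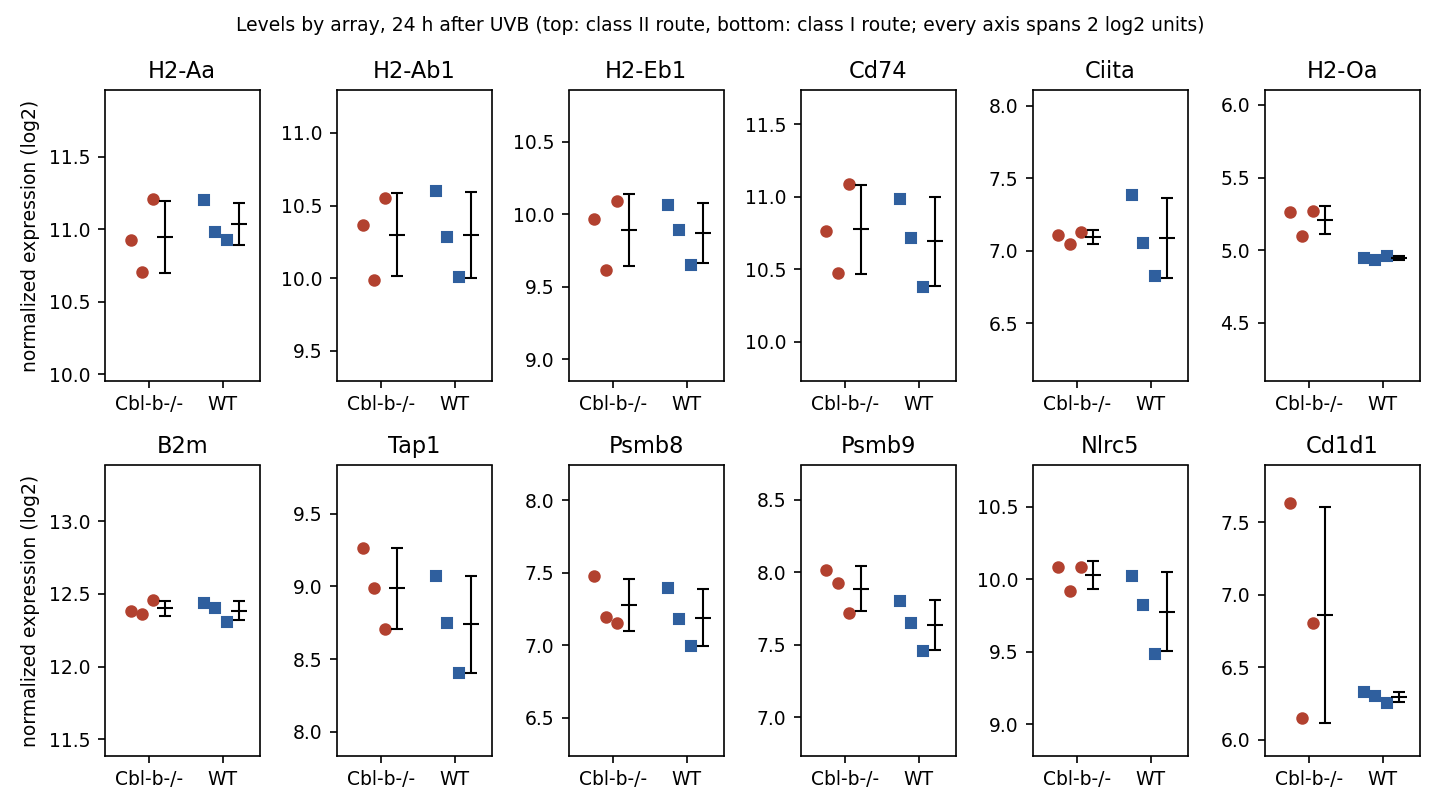
Normalized log2 level of 12 genes in each array (red circles Cbl-b-/-, blue squares WT, n = 3 each; dash and bar, mean ± SD), with every y axis spanning an equal range. Of these 12 genes the groups are apart only for H2-Oa, and Cd1d1 is spread in Cbl-b-/- skin with Cbl-b-/- 1 the highest (7.63).

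Ciita, the transactivator of class II genes, was at 7.11, 7.04 and 7.13 in Cbl-b-/- skin, against 7.38, 7.05 and 6.83 in WT skin. The WT arrays lay on both sides of the Cbl-b-/- arrays, and the log2 fold change was 0.0075 (95% interval −0.34 to 0.35). Of the RFX subunits, which bind the X box together, Rfxank was at 7.71, 7.53 and 7.64 in Cbl-b-/- skin, against 7.58, 7.44 and 7.43 in WT skin, with a log2 fold change of 0.14 (95% interval −0.07 to 0.35). Rfx5 was at 6.84, 6.42 and 6.61 in Cbl-b-/- skin, against 6.90, 6.66 and 6.82 in WT skin, with a log2 fold change of −0.17 (95% interval −0.48 to 0.14). The 2 subunits stood on opposite sides of 0, both with overlapping groups, and the third, Rfxap, had a log2 fold change of 0.046.

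The enzymes that prepare class II peptides in endosomes and lysosomes followed other arrays than the chains did. Ctsl, cathepsin L, was at 9.64, 9.96 and 9.29 in Cbl-b-/- skin, against 9.87, 9.99 and 9.504 in WT skin, the lowest log2 fold change of the 12 class II genes, −0.16 (95% interval −0.64 to 0.32), or −0.30 without WT 3. Ctss, cathepsin S, which cuts Cd74, was at 8.84, 9.34 and 8.97 in Cbl-b-/- skin, against 9.38, 8.78 and 8.76 in WT skin, with a log2 fold change of 0.076. Cbl-b-/- 2, low for the chains, was among the high arrays for both. Lgmn, an asparaginyl endopeptidase, had a log2 fold change of 0.052, and Ifi30, a thiol reductase of the endosome, had 0.048. As a median deviation from each gene's mean over the 6 arrays, the 4 enzymes stood at −0.037, 0.29 and −0.19 in the Cbl-b-/- arrays and at 0.33, 0.021 and −0.34 in the WT arrays. The 5 presenting genes (3 chains, Cd74 and H2-DMa) stood at 0.033, −0.26 and 0.25 in the Cbl-b-/- arrays and at 0.25, −0.013 and −0.29 in the WT arrays. Both groups of genes were high in WT 1 and low in WT 3, and they parted in Cbl-b-/- 2 and Cbl-b-/- 3.

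In the fit over all 6 arrays none of the 18 class I genes passed at an unadjusted p under 0.05 in limma, and the groups of each overlapped. B2m, the light chain of class I, varied little and was at 12.39, 12.36 and 12.46 in Cbl-b-/- skin, against 12.44, 12.40 and 12.31 in WT skin. Its arrays overlapped, its log2 fold change was 0.018 and its 95% interval ran from 0.889-fold to 1.15-fold. H2-M3, a nonclassical heavy chain that presents formylated peptides, was at 6.75, 6.49 and 6.64 in Cbl-b-/- skin, against 6.79, 6.45 and 6.08 in WT skin. WT 3 alone lay under the other arrays, and the log2 fold change was 0.18 (95% interval −0.26 to 0.63), or 0.0026 without WT 3.

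Sequences upstream of B2m and Psmb8 are shown because they are class I genes that interferons raise. They are the 200 bases before the start on the plus strand from RefSeq (GRCm38.p6), at chr2:122147487-122147686 and chr17:34197995-34198194. Capitals mark GAAA followed after 2 bases by GAAA again, a pattern of interferon-stimulated elements, and ATTGG in B2m, and TTCNNNGAA, a pattern of STAT sites, in Psmb8.
B2m: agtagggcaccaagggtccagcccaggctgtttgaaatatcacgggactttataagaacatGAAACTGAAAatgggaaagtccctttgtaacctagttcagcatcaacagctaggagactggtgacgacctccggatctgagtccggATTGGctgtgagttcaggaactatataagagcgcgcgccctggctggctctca
Psmb8: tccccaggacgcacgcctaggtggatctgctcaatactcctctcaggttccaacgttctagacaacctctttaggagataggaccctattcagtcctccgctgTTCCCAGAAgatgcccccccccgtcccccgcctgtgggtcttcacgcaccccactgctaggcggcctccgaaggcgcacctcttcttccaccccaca
The GAAA pair starts 139 bases and ATTGG 53 bases before the start of B2m, and TTCNNNGAA starts 97 bases before that of Psmb8. In the 250 bases before a start, the GAAA pair on either strand was present in 2.98% of all promoters and in 3 of the 29 listed genes (B2m, Ctss and H2-T23). TTCNNNGAA, which reads alike on both strands, was present in 7.02% of all promoters and in 2 of the 29 (Psmb8 and H2-M3).

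Tap1, a chain of the peptide transporter, was at 9.26, 8.99 and 8.71 in Cbl-b-/- skin, against 9.07, 8.75 and 8.40 in WT skin. The groups overlapped, with Cbl-b-/- 1 the highest and WT 3 the lowest, and the log2 fold change was 0.25 (standard error 0.21, 95% interval −0.25 to 0.75). It was 0.080 without WT 3, 0.11 without Cbl-b-/- 1 and 0.41 without WT 1. Tap2, the other chain of the transporter, was at 8.02, 7.66 and 7.47 in Cbl-b-/- skin, against 7.73, 7.86 and 7.54 in WT skin, and its log2 fold change was 0.0056. Tapbp, or tapasin, which holds the heavy chain at the transporter, was at 9.40, 9.21 and 9.19 in Cbl-b-/- skin, against 9.21, 9.05 and 8.87 in WT skin. WT 1 reached into the Cbl-b-/- range, and the log2 fold change was 0.22 (unadjusted p = 0.1002 in limma), or 0.14 without WT 3. Its relative Tapbpl, a peptide editor, had a log2 fold change of 0.098.

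Psmb8, Psmb9 and Psmb10 are the subunits that turn the proteasome into the immunoproteasome. Psmb8 was at 7.48, 7.19 and 7.15 in Cbl-b-/- skin, against 7.39, 7.18 and 6.999 in WT skin, overlapping, with a log2 fold change of 0.085 (95% interval −0.25 to 0.42). Psmb9 was at 8.02, 7.93 and 7.72 in Cbl-b-/- skin, against 7.80, 7.65 and 7.46 in WT skin. WT 1 lay above Cbl-b-/- 3 and the other arrays of the genotypes were apart, and the log2 fold change was 0.25 (unadjusted p = 0.0907 in limma), or 0.16 without WT 3. Psmb9 stands head to head with Tap1 on chromosome 17, Tap1 on the plus strand and Psmb9 on the minus strand, and 275 of the 300 bases of their promoter windows are shared. Psmb10 had a log2 fold change of 0.0011, and Psme1 and Psme2, the subunits of the PA28 activator, had 0.072 and 0.099.

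Over these 5 genes and the 2 Tap genes, 7 of 7 log2 fold changes lay above 0 (median 0.085). Cbl-b-/- 1 was the highest array for 6 of the 7 and WT 3 the lowest for 6 of the 7. The median was −0.011 without WT 3, the lowest with any single array left out, and the highest was 0.15. The median deviation of the 7 was 0.25, 0.024 and −0.11 in the Cbl-b-/- arrays and 0.060, −0.046 and −0.25 in the WT arrays. The arrays of the genotypes overlapped. Erap1, which trims peptides in the endoplasmic reticulum, had the lowest log2 fold change of the class I genes, at 7.40, 7.07 and 7.05 in Cbl-b-/- skin, against 7.52, 7.33 and 7.14 in WT skin. Its arrays overlapped, and the log2 fold change was −0.15 (95% interval −0.49 to 0.19), or −0.24 without WT 3. The folding chaperones Calr, Canx and Pdia3 had log2 fold changes of −0.017, −0.029 and −0.051.

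**Figure D3:**
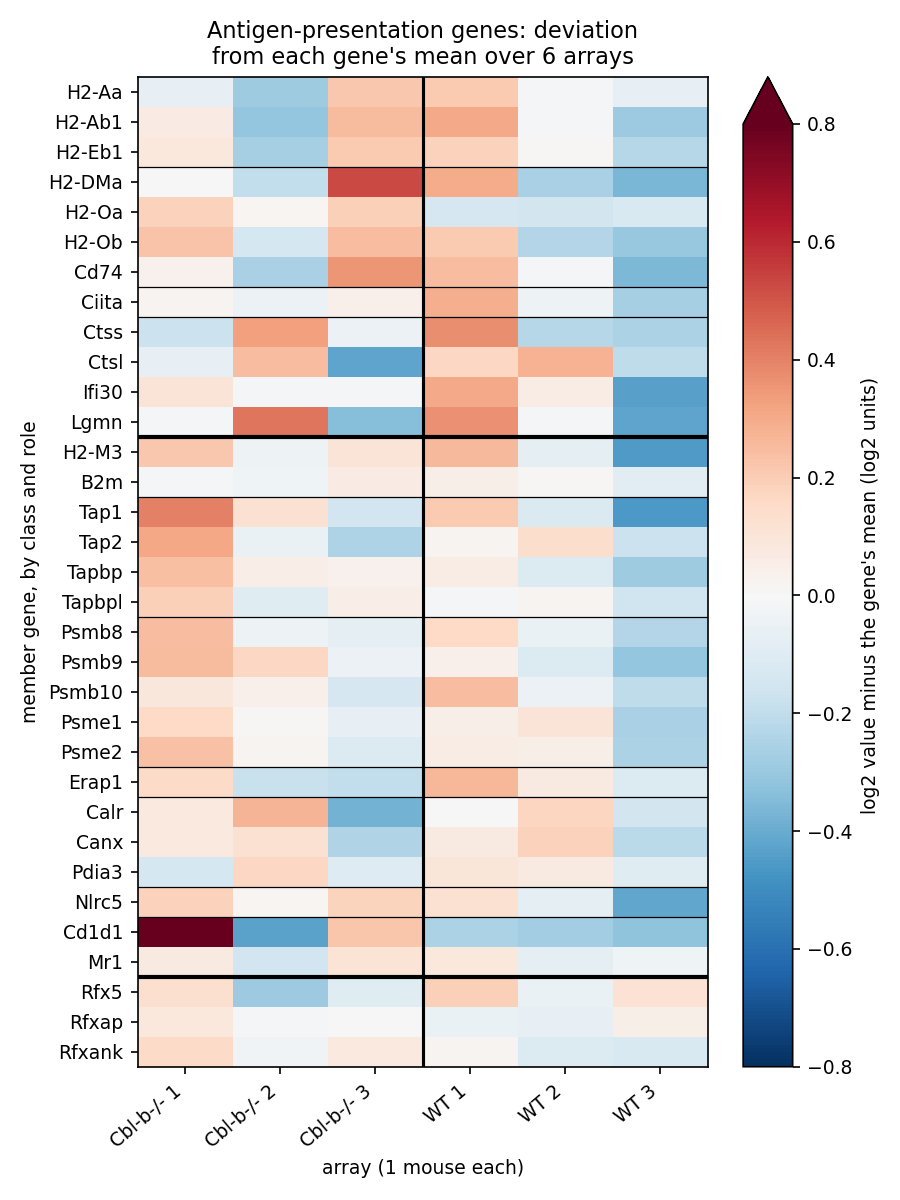
Deviation of each gene's log2 level from its own mean over the 6 arrays (colour scale, log2 units), with genes down the page by role and arrays across, Cbl-b-/- left of WT; Cd1d1 in Cbl-b-/- 1 lies beyond the end of the scale. WT 3 is the lowest array for 19 of the 33 genes, and Cbl-b-/- 1 is the highest for 12.

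Nlrc5, the transactivator of class I genes, was covered by 19 transcript clusters, more than any of the other measured genes of the list, each of which had 1. The cluster with the highest mean was at 10.08, 9.92 and 10.08 in Cbl-b-/- skin, against 10.02, 9.82 and 9.49 in WT skin. WT 3 lay under all other arrays and the groups overlapped, and the log2 fold change was 0.25 (standard error 0.15, 95% interval −0.10 to 0.60). It was 0.10 without WT 3, and 0.37 without WT 1, when it passed at an unadjusted p of 0.0363 in limma. Across the 19 clusters the log2 fold change ran from 0.11 to 0.39 with a median of 0.22, and 19 of 19 lay above 0. These clusters read the same 6 RNAs and are not independent of each other. WT 3 was the lowest array in 19 of 19 and Cbl-b-/- 1 the highest in 17 of 19. Without WT 3 the median was 0.067 and 17 of 19 lay above 0. In limma 1 of the 19 clusters passed at an unadjusted p under 0.05, where 6.55% of all clusters did, and the adjusted p ran from 0.749 to 0.896. For 2 of the 19 the groups did not overlap, where 13.5% of all clusters had groups that did not.

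**Figure D4:**
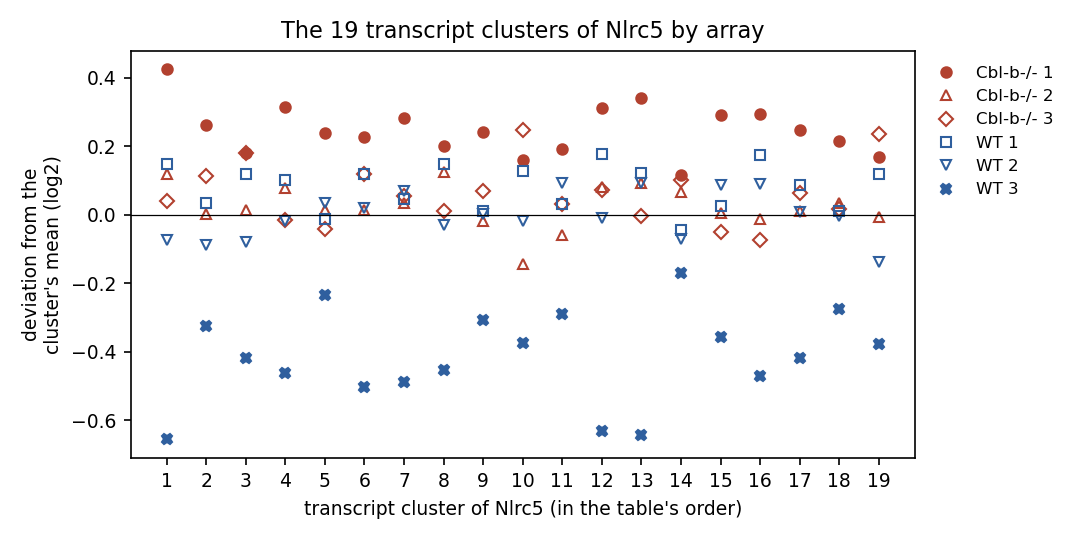
Deviation of each array (y axis, log2 units) from the cluster's mean over the 6 arrays, for each of the 19 transcript clusters of Nlrc5 (x axis, red symbols Cbl-b-/-, blue symbols WT). WT 3 is the lowest array in 19 of 19 clusters and Cbl-b-/- 1 the highest in 17.

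Cd1d1, a class I-like molecule that presents lipids to natural killer T cells, had the largest difference and the largest spread among the measured genes. It was at 7.63, 6.15 and 6.80 in Cbl-b-/- skin, against 6.33, 6.30 and 6.26 in WT skin. Cbl-b-/- 1 and 3 lay above the WT arrays and Cbl-b-/- 2 below them. The mean was 6.86 ± 0.74 in Cbl-b-/- skin and 6.29 ± 0.035 in WT skin (SD, n = 3 each), and the log2 fold change was 0.57 (95% interval −0.26 to 1.39, adjusted p = 0.780 in limma). Without Cbl-b-/- 1 it was 0.18, and without Cbl-b-/- 2 it was 0.92 with an unadjusted p of 0.0096, when it met the study's thresholds. Adipocyte genes, with deviations of 0.81, −0.97 and 0.58 in the Cbl-b-/- arrays and 0.24, −0.089 and −0.45 in the WT arrays, were also high in Cbl-b-/- 1 and 3 and low in Cbl-b-/- 2. Skeletal muscle genes were likewise low in Cbl-b-/- 2 (0.30, −0.84 and 0.14 in the Cbl-b-/- arrays). Neutrophil genes were high in it (−0.43, 1.04 and −0.55). Among the WT arrays Cd1d1 varied less than the adipocyte genes did. The part of any of these lists in the Cd1d1 values was not tested. Mr1, which presents metabolites of vitamin B2 to another set of T cells, had a log2 fold change of 0.016.

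The class I and class II routes were set beside each other within each array. The median log2 fold change was 0.079 over the 18 class I genes, 14 of them above 0, and 0.050 over the 12 class II genes, 10 of them above 0, and without WT 3 the medians were −0.0065 and −0.10. As median deviations from gene means, class I stood at 0.18, 0.013 and −0.071 in the Cbl-b-/- arrays and at 0.067, −0.017 and −0.23 in the WT arrays. Class II stood at 0.026, −0.095 and 0.20 in the Cbl-b-/- arrays and at 0.27, −0.018 and −0.28 in the WT arrays. The difference, class I minus class II, was 0.16, 0.11 and −0.27 in the Cbl-b-/- arrays and −0.20, 0.0002 and 0.052 in the WT arrays. The arrays of the genotypes overlapped for both routes and for their difference. Cbl-b-/- 1 was the highest array for 10 of 18 class I genes and for 0 of 12 class II genes, whereas Cbl-b-/- 3 was the highest for 6 of 12 class II genes and for 2 of 18 class I genes. WT 3 was the lowest for 11 of 18 class I and 7 of 12 class II genes.

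**Figure D5:**
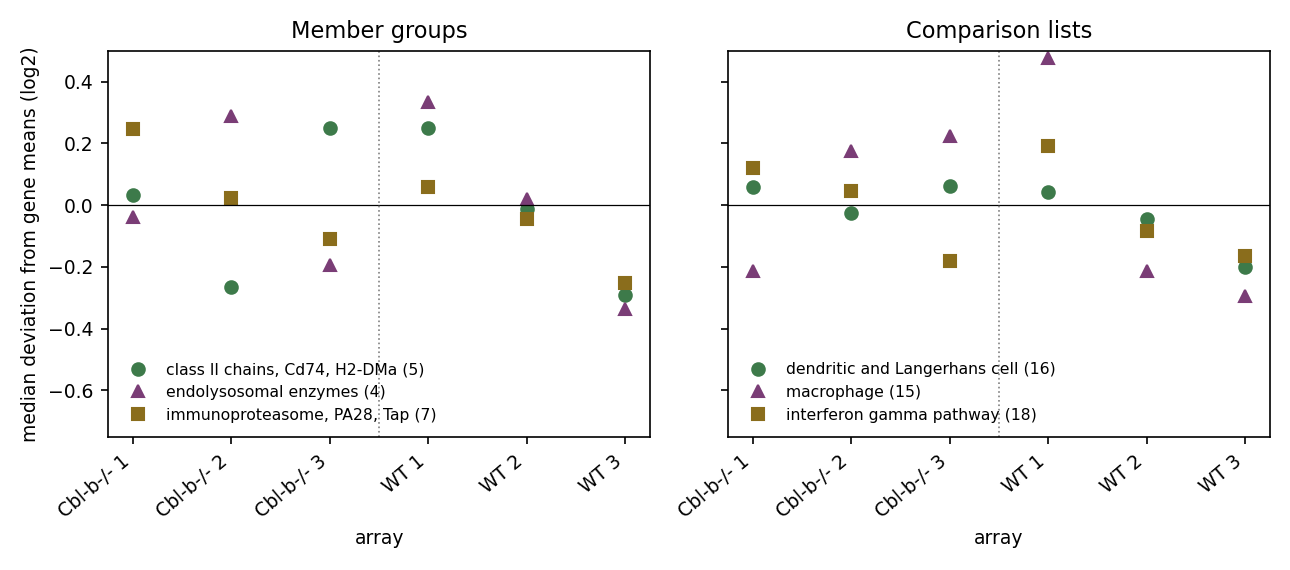
Median deviation from gene means (y axis, log2 units) in each array (x axis, Cbl-b-/- left of WT), for groups of the listed genes on the left and for lists of cell type and interferon genes on the right. The class II chains with Cd74 and H2-DMa are low in Cbl-b-/- 2 (−0.26) where the endolysosomal enzymes are high (0.29).

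Genes of the presenting cells were measured in the same arrays. Dendritic and Langerhans cell genes had median deviations of 0.060, −0.026 and 0.063 in the Cbl-b-/- arrays and 0.043, −0.046 and −0.20 in the WT arrays. WT 3 was the lowest array for them and for both the class I and class II genes. It was also the lowest for keratinocyte (−0.29) and blood endothelium genes (−0.56), and the highest for hair follicle genes (2.34). Macrophage genes had −0.21, 0.18 and 0.22 in the Cbl-b-/- arrays and 0.48, −0.21 and −0.29 in the WT arrays. Of 16 dendritic and Langerhans cell genes 11 had a log2 fold change above 0 (median 0.14). At an unadjusted p under 0.05, 0 were higher and 1 lower (of all clusters, 3.68% were higher and 2.87% lower). The lower gene was Cd209a, a lectin of dermal dendritic cells (log2 fold change −0.63). Its groups overlapped, and with single arrays left out its unadjusted p in limma reached 0.138. Of 15 macrophage genes 7 had a log2 fold change above 0 (median −0.028, or −0.17 without WT 3). At that p 1 was higher and 0 lower. The higher gene was the complement receptor gene Vsig4 (log2 fold change 1.28), at a percentile of 32.2 of all clusters by mean level. Of 18 measured interferon gamma pathway genes 7 had a log2 fold change above 0 (median −0.033) and 1 passed, the chemokine gene Cxcl11, which was higher with a log2 fold change of 0.87. The part of cell content in the array differences of the class I and class II genes was not tested.

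Further genes of both routes were read from lists beside the 33 genes. Of 18 measured other class I and class I-like genes, 15 had a log2 fold change above 0 (median 0.13, or 0.069 without WT 3). This list also holds H2-Ke6, an MHC-region gene that is not a class I molecule. At an unadjusted p under 0.05, 4 of the 18 were higher and 0 lower, with 0 meeting the study's thresholds. Of all clusters, 3.68% were higher and 2.87% lower at that p. Among clusters with a mean under the median cluster, 4.57% were higher. H2-T10, a nonclassical class I gene, was at 6.99, 6.83 and 6.86 in Cbl-b-/- skin, against 6.71, 6.66 and 6.20 in WT skin, and H2-Bl, another of the MHC, was at 5.23, 5.14 and 5.19 in Cbl-b-/- skin, against 5.02, 4.91 and 4.87 in WT skin. H60b, a ligand of the natural killer receptor NKG2D, was at 4.73, 4.89 and 4.78 in Cbl-b-/- skin, against 4.56, 4.67 and 4.49 in WT skin. The groups did not overlap for these 3 genes, whose log2 fold changes were 0.37, 0.25 and 0.22 (unadjusted p 0.0426, 0.0161 and 0.0410 in limma). They did not overlap for H2-Q2 either (log2 fold change 0.22, unadjusted p = 0.0559 in limma). Of all clusters, 8.66% had every Cbl-b-/- array above every WT array. Cd1d2, the neighbour of Cd1d1, overlapped, with a log2 fold change of 0.29. Without WT 3 H2-T10 (0.21) and H60b (0.18) no longer passed, and without Cbl-b-/- 1 Cd1d2 (0.22) did not. With single arrays left out the unadjusted p of H2-Bl in limma reached 0.0539, so it did not pass every time either. Of the 18 clusters 12 lay under the median cluster by mean level, and class I genes of the MHC are alike in sequence, so probes may read more than 1 of them.

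Of 13 measured other class II genes, 0 were higher and 2 lower at an unadjusted p under 0.05 (median log2 fold change −0.026). Of all clusters, 3.68% were higher and 2.87% lower at that p. Cd63, a membrane protein of late endosomes and of the vesicles in which class II is loaded, was at 9.87, 10.16 and 9.999 in Cbl-b-/- skin, against 10.39, 10.37 and 10.33 in WT skin. Every Cbl-b-/- array lay under every WT array, and the log2 fold change was −0.35 (unadjusted p = 0.00846, adjusted p = 0.685 in limma). Nfyb, a subunit of the NF-Y factor that binds the ATTGG box, was at 7.49, 7.58 and 7.36 in Cbl-b-/- skin, against 7.77, 7.81 and 7.70 in WT skin, also without overlap. Its log2 fold change was −0.29 (unadjusted p = 0.0160, adjusted p = 0.733 in limma). With single arrays left out its unadjusted p in limma reached 0.0551, whereas that of Cd63 stayed under 0.05. Of all clusters, 4.89% had every Cbl-b-/- array under every WT array. Of 19 other class I processing genes and 13 other endolysosomal genes, 0 passed in limma in either direction, with medians of −0.016 and −0.0037. The endolysosomal genes are proteases apart from Cst3, Lamp1 and Lamp2.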

How the data were processed

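RNA of dorsal skin from 3 Cbl-b-/- and 3 WT mice, 1 Affymetrix Mouse Gene 1.0 ST array each, was analysed from the table deposited by the authors, in which 35556 transcript clusters carry normalized log2 values, 1 for every array. The authors made these log2 values by the robust multichip average; the submitters' processing notes name Expression Console, RMA and Partek (version 6.5). The log base was read from the method and the range of the values. Gene names came from the platform annotation, in which 21789 clusters have 1 symbol, 1621 several and 12146 none. The number of arrays limits the precision. Pearson correlations between arrays across clusters were 0.980 to 0.993. Nothing in the labels says whether the mice shared litters or days, so the p-values cover the spread between these mice only.

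Genotypes were compared as Cbl-b-/- minus WT with limma (version 3.58.1, R version 4.3.3), using lmFit and eBayes on all 35556 clusters, with Benjamini-Hochberg adjustment over all of them. The fit was tested on simulated data with known changes. A 1.5-fold difference is 0.58 on the log2 scale. The members, gene lists and rules were chosen with earlier results of these data known. Values in every array were given for the presenting molecules and both transactivators (H2-Aa, H2-Ab1, H2-Eb1, Cd74, Ciita, B2m, Tap1, Psmb8 and Nlrc5), for members with an unadjusted p under 0.05 or with groups that did not overlap, and for the members with the highest and lowest log2 fold change of each class. Further members given by array (Ctss, H2-DMa, H2-M3, H2-Ob, Psmb9, Tap2 and Tapbp), and H2-Ea, were added after their values were seen. Values of genes of other lists were given at an unadjusted p under 0.05, apart from H2-Ea, Fcer2a and H2-Q2, whose p was higher. Alternatives were cyclic loess between arrays, a filter on low clusters, the replicate number as a block, the methods' test without sharing of the spread, a trended robust prior, another cluster for genes with several, and each array left out in turn. Promoters were read from RefSeq (GRCm38.p6), and entries were used for 29 of the 37 genes. For the listed genes, entries on 1 chromosome were left out. No entry was used for H2-Ab1, Cd74, Ciita, Nlrc5, Tap2, Tapbpl, Cd1d1 and Rfxap.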

Additional observations from a re-analysis of the deposited data

How the results depend on the processing

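Of 179 values of 15 genes under the alternatives, 153 kept their direction and side of the p threshold, 1 lost the call, 3 gained it and 22 changed sign. Part of this count was fixed in advance. The block, the methods' test, the trended prior and the filter leave the log2 fold change as it was and can change only the p. Taking another cluster changes nothing for genes with 1 cluster. The 153 are therefore no measure of stability. Genes meeting the study's thresholds numbered 0 under every alternative except without Cbl-b-/- 2, when Cd1d1 met them (range 0 to 1 with single arrays left out) and 2.22% of all clusters did. The count at an unadjusted p under 0.05 in limma was 1 in the reported fit. It was 0 with only clusters above the median cluster, where H2-Oa was no longer tested, and 0 to 5 with single arrays left out, 0 without Cbl-b-/- 1 (5.10% of all clusters) and 5 of 33 without WT 1 (H2-Oa, H2-Ob, Tapbp, Psmb9 and Nlrc5; 5.79% of all clusters). Without Cbl-b-/- 2 it was 2 (H2-Oa and Cd1d1; 7.47% of all clusters) and without Cbl-b-/- 3 it was 2 (H2-Oa and Psmb9; 5.99%). The cause was not tested.

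Arrays with the same replicate number share only a number in the labels. Their deviations correlated at 0.092 to 0.25, and 5 of 6 arrays correlated best with their own number. With the replicate number as a block, 3 of 33 genes passed at an unadjusted p under 0.05 (H2-Oa, Tap1 and Psmb9), where 7.003% of all clusters did, and 0 met the study's thresholds.

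With cyclic loess the log2 fold change was −0.014 for H2-Ab1, −0.0030 for Ciita and −0.014 for B2m, each above 0 as deposited. With single arrays left out the log2 fold change ran from −0.22 to 0.031 for H2-Aa, −0.14 to 0.16 for H2-Ab1, −0.086 to 0.16 for H2-Eb1, −0.074 to 0.24 for Cd74, −0.12 to 0.15 for Ciita, −0.019 to 0.045 for B2m, −0.017 to 0.19 for Psmb8, −0.32 to 0.012 for Ctsl, 0.080 to 0.41 for Tap1 and 0.10 to 0.37 for Nlrc5. The class I median ran from −0.0065 to 0.14 and the class II median from −0.10 to 0.22, both lowest without WT 3. Over all clusters the study's thresholds were met by 434 in limma, 267 with the methods' test and 176 with the filter, and at an adjusted p under 0.05 the counts were 1, 2 and 9.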
